A study of Arabidopsis thaliana with 24 samples.

Results

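The chloroplast genome of Arabidopsis thaliana encodes, besides proteins of photosynthesis, much of the machinery by which the chloroplast expresses its own genes. On the array, 26 probe sets were linked to 1 chloroplast-encoded gene that is not rbcL and whose symbol does not begin with psa, psb, pet, atp or ndh, out of 22746 probe sets other than controls. The rule uses the genes' symbols and no measured value. By role, 4 of the 26 genes encode subunits of the chloroplast RNA polymerase (rpoA, rpoB, rpoC1 and rpoC2), 7 encode proteins of the large ribosomal subunit (rpl14, rpl16, rpl20, rpl22, rpl32, rpl33 and rpl36), 8 encode proteins of the small ribosomal subunit (rps2, rps3, rps4, rps14, rps15, rps16, rps18 and rps19) and 7 have other functions (accD, ccsA, cemA, clpP, matK, ycf3 and ycf4). All 26 passed the filter on low values, which required 3 or more arrays with a signal of 100 or above, as did 18751 probe sets in the whole series.

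Whole 7-day-old seedlings of 4 genotypes were grown either in light or in darkness, with 3 arrays in each of the 8 groups. The genotypes were csn3-1, csn4-1, a line labelled csn5 (csn5a-2 csn5b), and wild type (WT), which the labels give as Col where they name an accession. The mutated genes belong to the COP9 signalosome. This complex takes the ubiquitin-like protein NEDD8 off cullin ubiquitin ligases, and seedlings without it look light-grown in darkness. The comparisons ask how these genes' signals depend on the complex and on light. About 80 mg of seedlings gave each RNA sample, and whole seedlings mix all organs, so fewer cells of a type and less RNA per cell cannot be told apart.

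As background, chloroplast genes are read by a bacterial-type polymerase whose core is made of the products of rpoA, rpoB, rpoC1 and rpoC2, and by a phage-type polymerase encoded in the nucleus. The rpoB unit and accD are known as genes read by the nuclear-encoded polymerase, and clpP as a gene it can also read. Chloroplast ribosomes are bacterial in type and combine proteins made from chloroplast and from nuclear genes. Most chloroplast transcripts carry no stable poly(A) tail, and the primer used for labelling was not given in the sources used here.

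Several arrays stood apart. The ratio of the actin control's 3′ probe set to its 5′ probe set, which rises when RNA is degraded or copied incompletely, ran from 2.26 to 48.9 over the 24 arrays. In light it was 8.81 to 9.92 in csn3, 9.75, 48.9 and 7.34 in csn4, 5.17 to 8.10 in csn5-labelled and 2.44 to 3.12 in WT seedlings. In darkness it was 27.5, 15.6 and 10.6 in csn3 arrays, 16.1, 13.7 and 14.6 in csn4 arrays, 6.12 to 7.83 in csn5-labelled and 2.26, 21.3 and 4.79 in WT seedlings. In light, every mutant array therefore lay above every WT array, and in darkness the second WT array lay among the mutants. The CSN5B probe set was high in the line whose label names csn5b, with signals of 1573 to 1897 in its dark arrays, against 118 to 177 in WT dark arrays. Where this probe set lies relative to the mutation is not known, so its signal cannot say whether the label is right. The line is called csn5-labelled throughout. The third csn3 dark array carries the number of the first in its title and was counted as replicate 3. The csn4 and WT light arrays form an earlier range of accessions than the other 6 groups. The csn3, csn5-labelled and csn mean comparisons with WT in light therefore span both ranges. So do the comparisons of light with darkness in csn4 and WT and of dark mutants with light WT. The interactions of csn3, csn5-labelled seedlings and the csn mean with light also rest on light groups of different ranges. Range and group cannot be told apart in any of these.

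**Figure D1:**
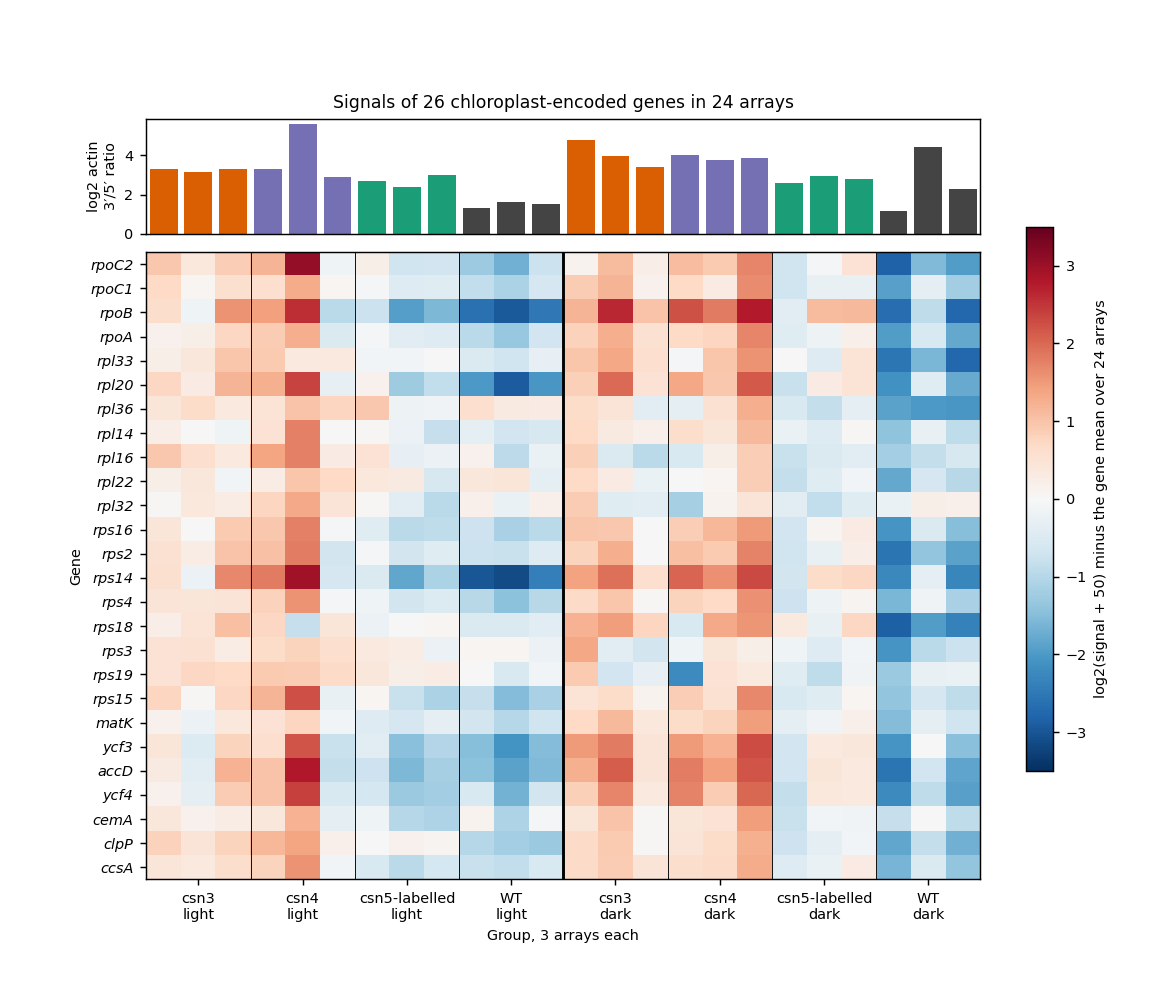
Each column is 1 of 24 arrays in 8 groups of 3, and each row 1 of 26 chloroplast-encoded genes. The colour is log2(signal + 50) minus that gene's mean over the 24 arrays, and the bars above give the log2 actin 3′/5′ ratio of each array. The mean of the WT dark group is the lowest of the 8 group means in 18 genes, and the second csn4 light array, with the ratio of 48.9, is among the highest.

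In darkness, most of these genes had higher signals in the mutants than in WT. Of the 26, 22 rose and 0 fell in the mean of the 3 mutants (the csn mean) against WT, where 13.5% of all tested probe sets rose and 11.7% fell. Calls required an adjusted p from limma under 0.05 together with a log2 difference of 1 or more in either direction, and all adjusted p-values of single genes here are limma's. The median log2 difference was 1.84 over the 26 genes and 0.18 over all tested probe sets. The 4 that did not pass were cemA (log2 difference 0.89), rpl16 (0.66), rps19 (0.28) and rpl32 (-0.29).

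All 4 polymerase genes rose in dark-grown mutants. The signal of rpoB, which encodes the beta subunit, was 9328, 25466 and 8216 in csn3 arrays, 19298, 14630 and 28007 in csn4 arrays, 3150, 8783 and 8946 in csn5-labelled seedlings, and 603, 2179 and 562 in WT seedlings. The 9 mutant arrays and the 3 WT arrays did not overlap, and the log2 difference was 3.60 ± 0.50 (SE, adjusted p = 7.6e-07). For rpoC2, which encodes the beta double-prime subunit, the 9 mutant arrays ran from 2439 through a median of 5649 to 13157, and the WT arrays gave 519, 1320 and 978. The groups were again apart, with a log2 difference of 2.66 ± 0.40 (adjusted p = 2.27e-06). The alpha subunit gene rpoA rose by 2.02 ± 0.30, with mutant signals of 16774 to 73528 and WT signals of 5750, 15404 and 6422. The beta-prime gene rpoC1 rose by 1.56 ± 0.28, but its second WT array, at 5493, lay above the lowest mutant array, at 4252.

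Of the ribosomal protein genes, 5 of 7 of the large and 7 of 8 of the small subunit rose in dark-grown mutants. The signal of rpl33 was 56090, 73486 and 43412 in csn3 arrays, 27194, 56615 and 86051 in csn4 arrays, 28452, 20982 and 40284 in csn5-labelled seedlings, and 4919, 9489 and 4265 in WT seedlings. Every mutant array was above the highest WT array, and rpl33 had the lowest adjusted p of the 26 genes in this comparison, 1.06e-09, at a log2 difference of 2.89 ± 0.28. Its neighbour rps18, transcribed together with it, was 17647, 20914 and 12926 in csn3 arrays, 5289, 19145 and 22534 in csn4 arrays, 9740, 6357 and 12631 in csn5-labelled seedlings, and 1011, 1937 and 1452 in WT seedlings. The arrays did not overlap, and the log2 difference was 3.12 ± 0.32 (adjusted p = 3.66e-09). The 9 mutant arrays of rps2, part of the rpoB transcription unit, ran from 4827 to 26274, against 1306, 2984 and 2132 in WT, a log2 difference of 2.49 ± 0.33. For rpl36 the mutant arrays ran from 3576 to 15523, against 1722, 1554 and 1537 in WT, a log2 difference of 2.02 ± 0.25. In rps14 (log2 difference 2.80 ± 0.50) and rpl20 (2.30 ± 0.42) the groups overlapped, since the second WT array reached 4797 in rps14 and 6566 in rpl20 while the lowest mutant array was at 3796 and 5137.

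Of the 7 other genes, 6 rose in dark-grown mutants. The signal of accD, which encodes a subunit of the acetyl-CoA carboxylase of fatty acid synthesis, was 13151, 23922 and 7481 in csn3 arrays, 19222, 14835 and 25610 in csn4 arrays, 3399, 7323 and 6899 in csn5-labelled seedlings, and 899, 3403 and 1479 in WT seedlings. The lowest mutant array lay just below the highest WT array, so the groups overlapped, and the log2 difference was 2.73 ± 0.47 (adjusted p = 1.69e-05). The signal of clpP, which encodes a proteolytic subunit of the Clp protease, ran from 12524 through a median of 28575 to 49174 in the mutants, against 5831, 11634 and 6456 in WT. The groups did not overlap, and the log2 difference was 1.75 ± 0.24 (adjusted p = 5.33e-07). The photosystem I assembly genes ycf4 and ycf3 rose by 2.49 ± 0.41 and 2.15 ± 0.43. The gene ccsA, needed to attach heme to c-type cytochromes, rose by 1.64 ± 0.25, and matK, which encodes a splicing factor for group II introns, rose by 1.39 ± 0.23.

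The second WT dark array was the highest of its 3 for 22 of the 26 genes. It is the WT dark array with the actin ratio of 21.3. Without it the median difference of the csn mean was 2.03, and without the first WT dark array, whose ratio was 2.26, it was 1.57. In that second case rps3, a small subunit gene with a log2 difference of 1.26 ± 0.28 over all arrays, was at 0.85 and was not called. Leaving out the 4 arrays with the highest actin ratios (the second csn4 light, first csn3 dark, second WT dark and first csn4 dark array) gave 23 genes that rose, where 15.1% of all probe sets did. All 9 mutant arrays lay above all 3 WT arrays in 12 of the 26 genes in darkness, where 19.8% of all tested probe sets did.

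By mutant, 23 of the 26 genes rose in dark csn3 (14.3% of all tested probe sets rose), 24 in csn4 (17.4%) and 15 in csn5-labelled seedlings (12.9%), all against the same 3 WT arrays. The medians were 2.00, 2.34 and 1.12 on the log2 scale. The largest differences in csn3 and csn4 were those of rpoB, at 3.70 and 4.38, and rpoB was at 2.72 in csn5-labelled seedlings. The csn5-labelled count depended on single WT arrays, with 7 genes called without the first WT dark array and 19 without the second. The differences between mutants were not tested here.

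**Figure D2:**
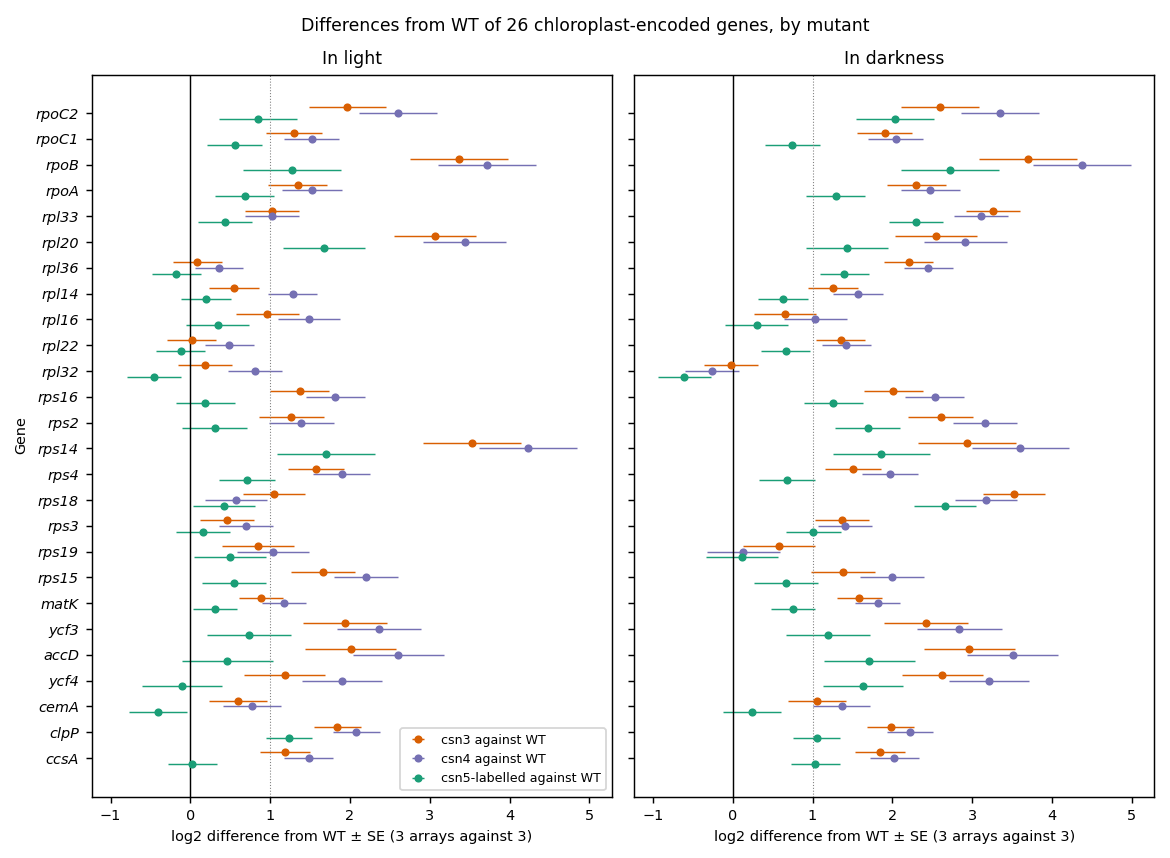
The points give the log2 difference from WT, with SE, of each of 26 genes in csn3, csn4 and csn5-labelled seedlings, in light on the left and in darkness on the right, 3 arrays against 3. The dotted line marks a log2 difference of 1, and the 3 mutants of a panel share their WT arrays. In darkness 23, 24 and 15 genes were called higher in csn3, csn4 and csn5-labelled seedlings, and in light 16, 19 and 3, in the same order of mutants.

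In light, 12 of the 26 genes rose in the mean of the 3 mutants against WT and 0 fell, where 11.4% of all tested probe sets rose. The median log2 difference was 0.99 over the 26 genes, beside 0.18 over all tested probe sets. The genes that rose were again the 4 of the polymerase, with 4 of 8 small subunit, 1 of 7 large subunit and 3 of 7 other genes.

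The difference was largest for rps14, a small subunit gene, with signals of 8925, 5237 and 19506 in csn3 arrays, 21074, 46502 and 3984 in csn4 arrays, 4189, 1674 and 2744 in csn5-labelled seedlings, and 706, 641 and 1098 in WT seedlings. The mutant arrays spanned a wide range but none overlapped WT, and the log2 difference was 3.15 ± 0.50 (adjusted p = 7.13e-06). The signal of rpoB was 6212, 3694 and 12176 in csn3 arrays, 11177, 24696 and 2091 in csn4 arrays, 2399, 1025 and 1342 in csn5-labelled seedlings, and 623, 483 and 680 in WT seedlings, a log2 difference of 2.78 ± 0.50. The signal of clpP ran from 20435 through a median of 28250 to 54479 in the mutants, against 10357, 9022 and 8388 in WT. All 9 mutant arrays of clpP were above WT, at a log2 difference of 1.72 ± 0.24 and an adjusted p of 9.51e-07. Its neighbour rpl20 rose by 2.72 ± 0.42, rpoC2 by 1.81 ± 0.40, accD by 1.69 ± 0.47, ycf3 by 1.68 ± 0.43, rps4 by 1.39 ± 0.29, rpoA by 1.18 ± 0.30 and rpoC1 by 1.12 ± 0.28.

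The 4 genes with the lowest adjusted p in darkness did not pass in light. The log2 difference of rpl33 was 0.83 ± 0.28, of rps18 0.68 ± 0.32, of rps2 0.98 ± 0.33 and of rpl36 0.09 ± 0.25. In rpl36 the light-grown arrays overlapped, with 5610 to 12872 in the mutants and 9591, 7902 and 7753 in WT. All 9 mutant arrays lay above all 3 WT arrays in 12 genes in light, where 22.6% of all tested probe sets did.

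By mutant, 16 genes rose in light-grown csn3 (11.6% of all tested probe sets), 19 in csn4 (14.5%) and 3 in csn5-labelled seedlings (10.9%). The 3 in csn5-labelled seedlings, a count near that share, were rps14 (1.70), rpl20 (1.68) and clpP (1.24). The csn5-labelled count was 1 to 4 with 1 array left out and 0 with the actin ratio in the fit. In csn4, whose light arrays share an accession range with WT, the second array was the highest of its 3 for 23 of the 26 genes and had the actin ratio of 48.9. Its rps14 signal of 46502 compared with 21074 and 3984 in the other csn4 light arrays, and its accD signal of 38273 with 10959 and 3046. Without the 4 arrays of highest actin ratio, 11 genes rose in the csn mean in light (11.1% of all tested probe sets did).

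**Figure D3:**
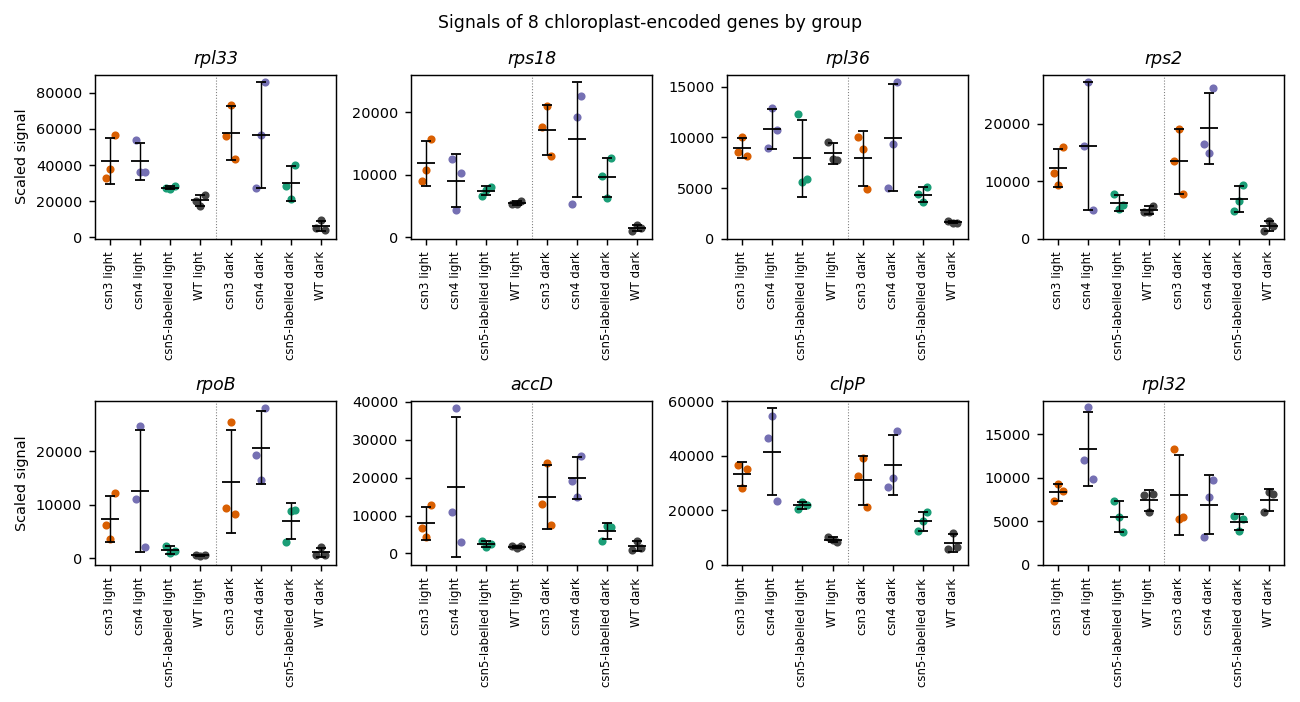
Scaled signals of 8 chloroplast-encoded genes in each array (points) of the 8 groups, with the mean and SD of 3 arrays (black). In rpl33, rps18, rpl36 and rps2 the WT light arrays lie above the WT dark arrays, while in rpoB, accD and clpP both WT groups are low, and in rpl32 the groups overlap.

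In light against darkness in WT seedlings, 6 of the 26 genes rose and 0 fell, where 9.48% of all tested probe sets rose and 9.77% fell, so most of these genes did not pass. The median log2 difference was 0.36 over the 26 genes and -0.05 over all tested probe sets. All 6 encode ribosomal proteins.

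The signal of rpl36 was 9591, 7902 and 7753 in WT light arrays, against 1722, 1554 and 1537 in WT dark arrays, a log2 difference of 2.35 ± 0.31 (adjusted p = 5.09e-07). The signal of rps18 was 5373, 5353 and 5853 in WT light, against 1011, 1937 and 1452 in WT dark, a log2 difference of 1.92 ± 0.39. The signal of rpl33 was 20244, 17534 and 23405 in WT light, against 4919, 9489 and 4265 in WT dark, a log2 difference of 1.78 ± 0.34. In these genes the WT light arrays were close to one another and lay above all WT dark arrays. The other 3 were rps2 (1.27 ± 0.41), rpl22 (1.26 ± 0.31) and rps3 (1.22 ± 0.34). Without the first WT dark array rps2 was at 0.96 and rps3 at 0.82, neither called, and 3 genes passed.

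No polymerase gene passed in this comparison, and their log2 differences were 0.87 for rpoC2, 0.44 for rpoA, 0.30 for rpoC1 and -0.59 for rpoB. Of the other class 0 of 7 passed, with accD at 0.07 ± 0.57, clpP at 0.28 ± 0.29 and matK at 0.07 ± 0.28. The WT light arrays lay all above the WT dark arrays in 6 genes and all below in 1, where the shares over all tested probe sets were 25.6% and 28.4%.

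Within the mutants, light and darkness gave few calls in these genes, near the low shares over all tested probe sets given here. In csn3, 0 of 26 were called by limma (2 had an unadjusted p under 0.05), where 0.549% of all tested probe sets rose and 0.331% fell. In csn4, rpl32 rose by 1.05 (adjusted p = 0.0465), where 2.13% of all tested probe sets rose and 1.36% fell. This call was lost under 6 other settings, which include leaving out the 4 arrays of highest actin ratio. In csn5-labelled seedlings rpoB fell by 2.04 (adjusted p = 0.0313), where 1.38% of all tested probe sets fell.

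The mutant effect differed between light and darkness in 5 genes, all with a smaller difference in light, where 9.52% of all tested probe sets had a lower interaction. The interaction of the csn mean with light was -2.44 ± 0.45 for rps18, -2.06 ± 0.39 for rpl33, -1.93 ± 0.35 for rpl36, -1.50 ± 0.47 for rps2 and -1.02 ± 0.35 for rpl22 on the log2 scale. These 5 are among the 6 genes that rose in WT light over WT dark, and both comparisons share the WT arrays. The interaction passed in rps18, rpl33 and rpl36 in each of the 3 mutants. Separately, 4 genes passed in csn3 (8.29% of all tested probe sets), 4 in csn4 (9.42%) and 3 in csn5-labelled seedlings (10.2%). The csn5-labelled count is near its share. Without the first WT dark array the interaction of rps2 was -1.19 and was not called. The number of genes with a called interaction was sensitive to the arrays with high actin ratios, and was 12 without the 4 highest (9.89% of all tested probe sets).

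Dark-grown mutants also compare with light-grown WT. All 9 dark mutant arrays lay above all 3 light WT arrays in 13 of the 26 genes, where 21.8% of all tested probe sets did. Among them were rpoA, rpoB, rpoC2, accD, clpP, matK, rps14, rpl20 and rps4. For clpP the dark mutants ran from 12524 to 49174, against 10357, 9022 and 8388 in light-grown WT.

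Within groups, most of these genes moved with the actin ratio. In a fit with the log2 ratio beside the 8 group means, 17 of 26 genes had a positive slope at an adjusted p under 0.05 and 0 a negative one, where 5.01% of all tested probe sets had a positive and 5.36% a negative slope. The median slope was 0.42 on the log2 scale per doubling of the ratio, beside 0.04 over all tested probe sets. The steepest was rps14 (0.82 ± 0.16), with accD at 0.80 ± 0.14, ycf3 at 0.77 ± 0.12 and rpoB at 0.73 ± 0.17.

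By role, all 4 polymerase genes had a called slope, with 6 of 7 other genes, 5 of 8 small subunit and 2 of 7 large subunit genes. The slopes of rpl33 (0.13 ± 0.12), rpl36 (0.08 ± 0.11) and rps18 (-0.07 ± 0.14) did not pass. Across the 26 genes, which share the same arrays, the slope had a Spearman correlation of 0.81 with the csn mean difference in light, 0.45 with that in darkness, -0.57 with light against darkness in WT and 0.14 with the interaction of the csn mean. Slopes and differences are not independent here. The arrays of high ratio, such as the second csn4 light and second WT dark array, enter both. How much of each correlation comes from them was not tested.

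**Figure D4:**
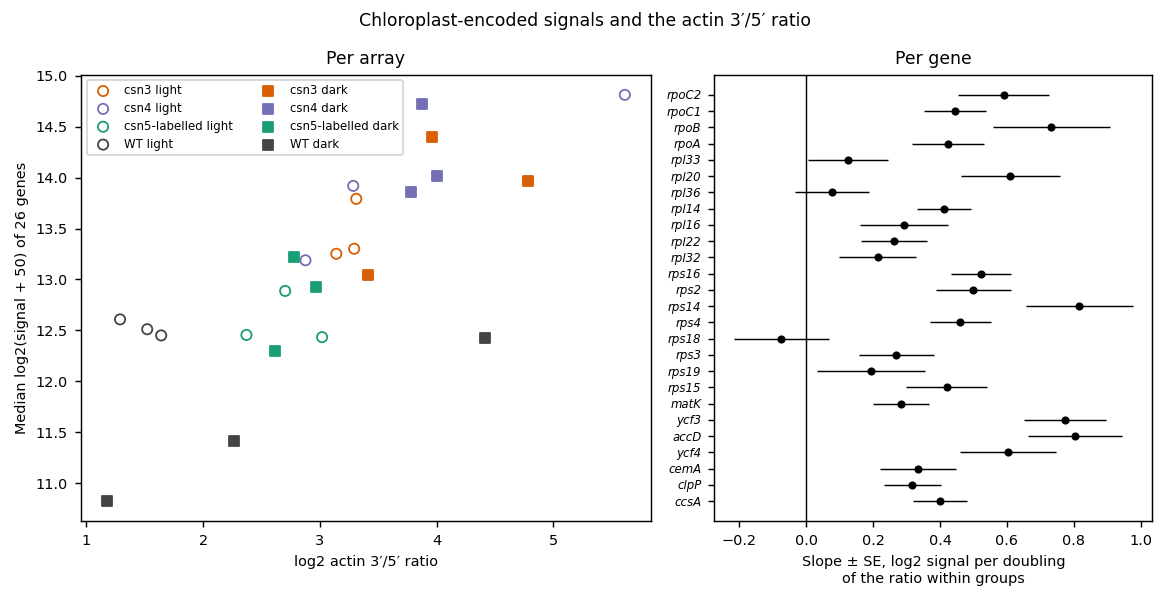
On the left, each array's median log2(signal + 50) over the 26 genes is plotted against its log2 actin 3′/5′ ratio, with open circles for light and filled squares for darkness. On the right, the slope of each gene within groups is given with its SE, and 17 of the 26 slopes were called, the median being 0.42 per doubling.

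The calls of these slopes, but not their sign, depended on the arrays with high ratios. Without the 4 arrays of highest ratio 0 slopes were called by limma, although 25 of 26 were above 0, 14 had an unadjusted p under 0.05 and the median was 0.52; over all tested probe sets 0.00533% were then called. Without the second csn4 light array 4 slopes were called. With 3′ to 5′ ratios of GAPDH in place of actin, 19 genes had a called slope, all positive (7.58% of all tested probe sets). With the older actin control sets on the array 0 were called, and 0 had an unadjusted p under 0.05.

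With the ratio in the fit, 18 genes rose in dark-grown mutants (12.4% of all tested probe sets) and the median difference was 1.42. The difference was 3.19 for rps18, 2.90 for rpoB, 2.77 for rpl33, 1.96 for accD and 1.45 for clpP. In light 4 rose (9.93%), at a median of 0.30. Those 4 were rps14 (1.68), rpl20 (1.62), rpoB (1.46) and clpP (1.15). The other polymerase genes were then at 0.74 for rpoC2, 0.42 for rpoA and 0.32 for rpoC1, none called, and accD at 0.24. Since no light mutant array had a ratio as low as those of WT light, ratio and genotype cannot be told apart within the light comparison. For light against darkness in WT, 9 genes rose (9.18%), at a median of 0.83.

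**Figure D5:**
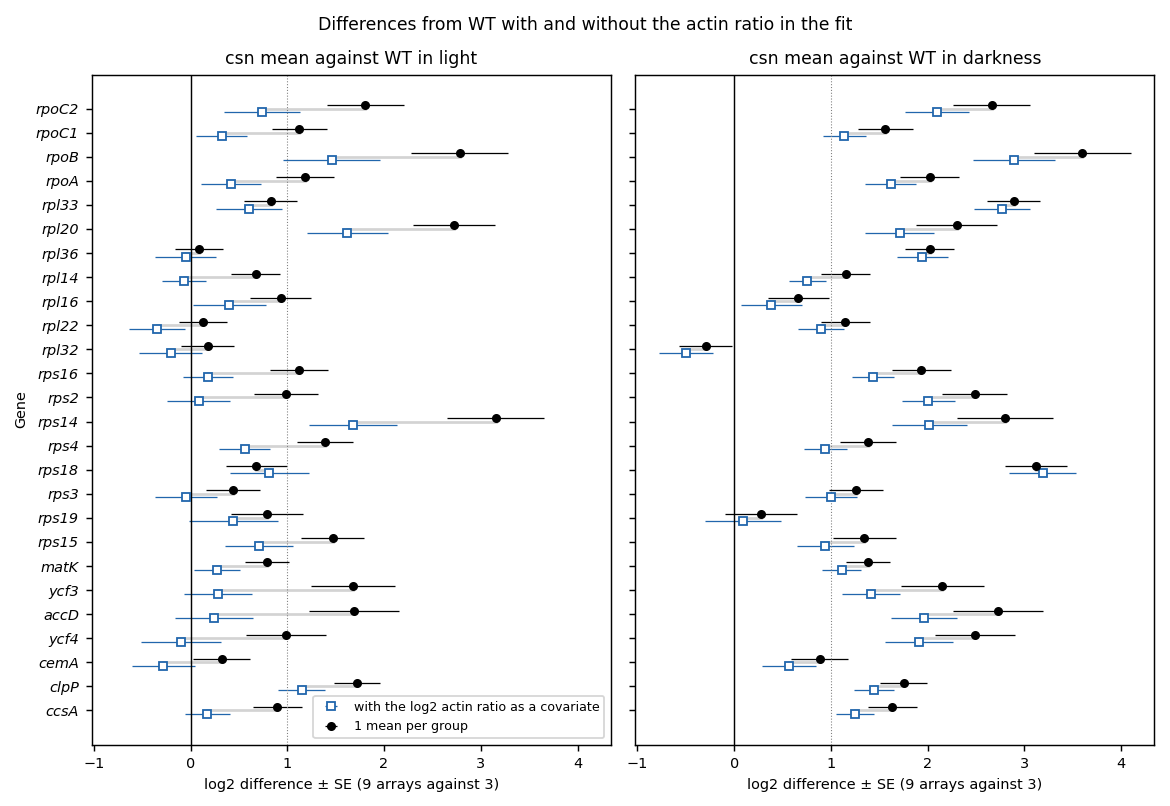
The log2 difference of the csn mean from WT, with SE, is given for each of the 26 genes in light (left) and darkness (right), with 1 mean per group (black circles) and with the log2 actin ratio added to the fit (open squares). The median was 0.30 with the ratio and 0.99 without it in light, and 1.42 with and 1.84 without in darkness. The dotted line marks a log2 difference of 1.

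Of the rRNA control signals, that of 5S rRNA also followed these genes within groups, and that of 25S rRNA did not. The 5S rRNA control, an RNA that like most chloroplast transcripts has no stable poly(A) tail, was 3332 to 9273 in csn3, 5377 to 10929 in csn4, 1348 to 3494 in csn5-labelled and 927 to 3767 in WT dark arrays. In light it was 1623 to 4319 in csn3, 1091 to 9978 in csn4, 463 to 1179 in csn5-labelled and 357 to 567 in WT arrays. In 7 of the 8 groups the array with the highest 5S signal was also the one in which most of the 26 genes were highest, while the actin ratio picked that array in 3 of 8. In a fit with log2 5S signal beside the group means, 18 genes had a called slope, all positive (9.89% of all tested probe sets). With the 25S rRNA control signal in its place, 0 slopes were called (0.00% of all tested probe sets). Of the 26 slopes 5 were then above 0, and the median was -0.05. Both rRNA comparisons were chosen after the values were seen, and the part of the labelling in the mutant differences was not tested.

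Several of these genes are transcribed in shared units, and differences between genes of a unit were not tested. Over all tested probe sets 13.5% rose in dark-grown and 11.4% in light-grown mutants. In the rpoB unit all 4 members rose in dark-grown mutants, with log2 differences of 3.60 (rpoB), 1.56 (rpoC1), 2.66 (rpoC2) and 2.49 (rps2). The 5 measured genes known for the nuclear-encoded polymerase (these 4 and accD) all rose in darkness, at a median of 2.66. Of all 26 genes 22 did, at a median of 1.84. In light 4 of the 5 rose, at a median of 1.69, beside 12 of the 26, at 0.99. All 5 had a called actin slope, and with the ratio in the fit rpoB alone of them was called in light. In the large ribosomal protein unit, 5 of 7 measured members rose in dark-grown mutants. In the order of the unit the log2 differences were 0.28 for rps19, 1.15 for rpl22, 1.26 for rps3, 0.66 for rpl16, 1.15 for rpl14, 2.02 for rpl36 and 2.02 for rpoA. In light 1 of the 7, rpoA, rose. In the csn mean, the pair rpl33 and rps18 rose in darkness and did not pass in light, where both rose in csn3 (1.02 and 1.05) and rpl33 rose in csn4 (1.02). The pair rpl20 and clpP rose in both.

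Other organelle genes changed in the same direction. Of the 43 probe sets for chloroplast photosynthesis genes, 37 rose in dark-grown mutants (median log2 difference 1.92) and 19 in light-grown ones (0.81), and 33 had a called positive actin slope. Of 23 probe sets for mitochondrial genes, which have no direct role in photosynthesis, 18 rose in dark-grown mutants (1.55) and 20 in light-grown ones (1.72), and 17 had a called positive actin slope. Over all tested probe sets 13.5% rose in dark-grown and 11.4% in light-grown mutants, and 5.01% had a called positive slope. In light against darkness in WT, 6 of the 26 genes described here rose and 0 fell (median 0.36), 9 of the 43 photosynthesis probe sets rose and 3 fell (median 0.37), and 0 mitochondrial probe sets rose and 7 fell (median -0.90).

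Nuclear genes for the same machinery followed another pattern, among those that a probe set named alone in the annotation used here. Others may lie among the probe sets unnamed here. Of 38 nuclear genes for plastid ribosomal proteins, 9 had a probe set naming them alone. Of these 8 rose in WT light over WT dark (median log2 difference 2.12), where 9.48% of all tested probe sets did. In dark-grown mutants 4 of 9 rose (median 0.87, where 13.5% of all tested probe sets rose), namely AT3G54210 (1.43), AT5G47190 (1.32), AT1G29070 (1.28) and AT4G17560 (1.22). In light-grown mutants 0 rose and 8 of 9 fell (median -1.46, where 9.21% of all tested probe sets fell). In the same comparison 5 of the 15 chloroplast-encoded ribosomal protein genes rose and 0 fell, where 11.4% of all tested probe sets rose. The lowest of the nuclear genes was AT1G64510, at -1.83 ± 0.25, and 0 of the 9 had a called actin slope.

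Of 18 nuclear genes for partners of clpP and accD, 5 had a probe set naming them alone, all of the Clp system and 0 of the acetyl-CoA carboxylase. In dark-grown mutants 2 of the 5 rose, where 13.5% of all tested probe sets did. CLPP4, another proteolytic subunit of the Clp protease, rose by 1.46 ± 0.17, and AT4G25370, a Clp accessory subunit, by 1.06 ± 0.19. The other 3 were at 0.92 (AT4G12060), 0.73 (AT1G68660) and 0.43 (AT1G09130). In light AT4G25370 fell by 1.02 in the mutants, and CLPP4 was at -0.58. Of 27 nuclear genes for plastid transcription, 1 had a probe set naming it alone. AT5G15700, a phage-type RNA polymerase of organelles, was at 0.84 in darkness, which did not pass, and rose by 1.25 ± 0.30 in light.

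The seedlings' tissue markers also differed between groups. Green tissue was represented by RCA (Rubisco activase), whose mean signal was 12770, 14852 and 16632 in dark csn3, csn4 and csn5-labelled seedlings, against 2022 in dark WT. In light it was 14410, 9211 and 11611 in these mutants, against 25601 in WT. The root marker PYK10 averaged 6256, 5029 and 7848 in the dark mutants, against 22508 in dark WT, and 4872 to 6564 in the light mutants, against 16270 in light WT. The root markers AT5G17820 and AT4G26010 averaged 258 to 489 and 41.6 to 148 in the dark mutants, against 2330 and 504 in dark WT, and 215 to 588 and 19.5 to 130 in the light mutants, against 850 and 363 in light WT. The dry seed marker AT3G01570 averaged 170 to 474 in the dark mutants, against 363 in dark WT, and 85.0 to 144 in the light mutants, against 78.1 in light WT. These 5 are the markers, of 10 listed, that had a probe set naming them, and the part of tissue makeup in these genes' differences was not tested.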

How the data were processed

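Total RNA was measured on Affymetrix ATH1 arrays. The deposited values were signal intensities on a linear scale, made by the authors with MAS5, per the submitters' processing notes. Their trimmed mean was 500 in every array. The MAS5 version, any filters and the probe-level steps were left unstated in these sources. No detection calls were used.

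Arrays were scaled to a 2% trimmed mean of 500, and 50 was added before log2, so fold changes of dim genes are understated. limma 3.58.1 in R 4.3.3 fitted 1 mean per group to all 24 arrays (lmFit, eBayes with trend), and p-values were adjusted by Benjamini-Hochberg over 18751 probe sets. Tested on simulated data for the csn mean in darkness, the fit recovered 90% of rises and 98% of falls by 1.6 on the log2 scale. Of changes by 2 it recovered 98% in either direction. The simulated noise was independent between genes and arrays, so it held no shift shared by the genes of an array. No change near the limit of 1 was simulated. Errors are SE of the fit. The labels call the arrays independent replicates, whose number limits precision. Pearson correlations between arrays of a group ran from 0.902 to 0.988.

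Genes named singly are the polymerase genes, accD, clpP, matK and, in each role and each of 3 comparisons (csn mean against WT in darkness and in light, and light against darkness in WT), the 2 members with the lowest adjusted p. Names came from GEO's platform annotation and a RefSeq table of assembly TAIR10.1. Of the probe sets, 13513 listed 1 gene, 503 several, and 8730 were unnamed here. Mitochondrial probe sets were matched by symbol. Members and lists were chosen with earlier results of these data known. The same-numbered arrays did not deviate together on average (mean correlation 0.00095 over 84 pairs, from -0.34 to 0.38). This cannot show whether they were grown or processed together, and the main fit did not pair samples by number.

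Alternatives covered scaling, quantile normalization, pseudocounts, filters, a replicate block, the actin covariate, high-ratio arrays, array weights, single comparisons and leaving out each array.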

Additional observations from a re-analysis of the deposited data

Results flagged for a closer look

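The effect of the mutants differed between light and darkness, by the interaction term of the fit, in these genes. For the csn mean the interaction was -2.44 for rps18, -2.06 for rpl33, -1.93 for rpl36, -1.50 for rps2 and -1.02 for rpl22 on the log2 scale, with adjusted p-values between 9.07e-05 and 0.0298. In csn3 it was -2.47 for rps18, -2.23 for rpl33, -2.12 for rpl36 and -1.34 for rpl22. In csn4 it was -2.60 for rps18, -2.09 for rpl33, -2.10 for rpl36 and -1.77 for rps2. In csn5-labelled seedlings, where the count of genes was near the share of all tested probe sets (10.2%), it was -2.24 for rps18, -1.86 for rpl33 and -1.58 for rpl36. All of them share the WT arrays.

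The 25S rRNA control, used elsewhere only in a fit of slopes, also separated the light groups. Its signal was at least 13702 in all 9 light-grown mutant arrays, against 1030 to 5330 in light-grown WT.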

How the results depend on the processing

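Counts below are of the 26 genes called, and the cause of each change was not tested unless said. They are given without the shares over all tested probe sets under the same settings. A changed count therefore cannot show whether the change is particular to these genes. With the actin ratio in the fit the light counts were 4 for the csn mean (12 without it), 5 in csn3, 4 in csn4 and 0 in csn5-labelled seedlings (no gene passed in the last, where limma called 3 without the ratio), and interactions were called in 13 for the csn mean, 12 in csn4 and 11 in csn5-labelled seedlings. Light against darkness was then called for 2 in csn4 (1 higher and 1 lower) and 2 in csn5-labelled seedlings (2 lower). Without the 4 arrays of highest ratio interactions were called in 12 for the csn mean, 7 in csn3, 17 in csn4 and 11 in csn5-labelled seedlings, light against darkness in 2 in csn3 and 3 in csn4 (all 3 lower), and slopes in 0. Array weights gave 9, 8, 7 and 10 interactions for the csn mean, csn3, csn4 and csn5-labelled seedlings. All were lower except 1 of those in csn4, which was higher. Array weights also gave 2 calls of light against darkness in csn4, both higher, and 3 in csn5-labelled seedlings, all lower. A fit of only the groups compared gave 6 interactions in csn5-labelled seedlings, and 0 and 4 calls of light against darkness in csn4 and csn5-labelled seedlings. The 1 call in csn4 was 0 under quantile normalization, pseudocount 16, no filter and the replicate block by the number in the title, and the block changed no other count by over 1.5 times. Slopes were called in 0 genes with the older actin sets and in 0 with the 25S rRNA signal, 2 controls added after seeing the data.

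Leaving out 1 array gave 19 to 23 genes for the csn mean in darkness, 20 to 24 in csn3, 22 to 25 in csn4 and 7 to 19 in csn5-labelled seedlings. In light it gave 11 to 16, 12 to 17, 16 to 21 and 1 to 4. Light against darkness gave 3 to 7 in WT, 0 to 1 in csn3, 0 to 3 in csn4 and 0 to 1 in csn5-labelled seedlings. Interactions gave 3 to 9 for the csn mean, 3 to 5 in csn3, 3 to 6 in csn4 and 3 to 7 in csn5-labelled seedlings. Slopes gave 4 to 19.

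Sign changes fell on differences that were not called. With the actin ratio in the fit the light difference of the csn mean was -0.049 for rpl36, -0.047 for rps3 and -0.10 for ycf4. Light against darkness in WT was 0.24 for rpoB, 0.34 for rps4 and 0.36 for ycf3 with the ratio, 0.016, 0.23 and 0.064 without the 4 arrays, and 0.013 for rps4 with array weights. The interaction of the csn mean was -0.091 for rpl20, -0.34 for rps14 and -0.38 for rps4 with the ratio, -0.35, -0.53 and -0.55 without the 4 arrays, and -0.26 for rps14 and -0.21 for rps4 with weights. It was 0.22 for clpP under quantile normalization and -0.010 for rps4 under the replicate block. Over single arrays left out, light against darkness in WT ran from -0.92 to 0.016 for rpoB, -0.074 to 0.71 for rpoC1, -0.35 to 0.58 for accD, -0.27 to 0.33 for matK, -0.50 to 0.23 for rps4 and -0.96 to 0.064 for ycf3. The interaction ran from -0.34 to 0.16 for clpP, -0.076 to 0.77 for rpl20, -0.30 to 0.69 for rps14 and -0.40 to 0.33 for rps4, and the light difference of rpl36 from -0.034 to 0.19.

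Among called differences, quantile normalization left matK at 0.97 and rps4 at 0.99 in darkness, the actin ratio left rps4 at 0.94 there, and array weights left rps3 at 0.91 in darkness and 0.95 in light against darkness in WT, none of them called. Without the second WT light array rpoC1 was at 0.995 in light and was not called. Without the third, rps2 lost its call in light against darkness in WT (1.16, limma adjusted p = 0.060). Its interaction (-1.40, limma adjusted p = 0.0501) was then not called either. No fit with the accession range could be made, since each group lies in 1 range. Signals far above the filter limit the effect of dim values, and 3 arrays per group limit precision.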
